A study of Mus musculus with 5 samples.

Results

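Ventilated lungs from the same genotype, mice lacking the tight junction gene Cldn4, were compared according to how badly the ventilator had injured them. The lungs with more injury than wild type (Cldn4 KO VILIhigh, KO_VILIhigh) were set against those with injury like that of wild type (Cldn4 KO VILIlow, KO_VILIlow). Every member of both groups lacked Cldn4 and was ventilated for 2 h at 40 cmH2O. The Cldn4 genotype and ventilation are therefore shared, and the labelled difference is the grade of injury. The other groups of the study were ventilated wild type lungs (WT_VILI, also 2 h at 40 cmH2O), unventilated knockouts (KO_noVILI) and unventilated wild type lungs (WT_noVILI). All mice had a mixed 129S6, C57BL/6 and BALB/c background, RNA came from whole lung, and age is not among the labels used here. The share of each strain in a group is not given in them either, so strain background and injury grade cannot be told apart. The design text gives 2 libraries per group, and nothing in the labels says whether they came from separate animals. The p-values therefore measure at most the spread between these libraries, which may be technical. For many genes the error was in part or wholly borrowed, from the other comparison or from genes of like abundance. The study sorted its knockouts by an outcome, the injury itself, and no score of that injury for a single animal was used here.

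For each gene, the quantity compared was the log2 fold change of KO_VILIhigh against WT_VILI minus the log2 fold change of KO_VILIlow against WT_VILI, from which the shared WT_VILI level cancels. Of 21590 genes in the authors' deposited tables, 13222 could be used. These had a mean abundance of at least 1 on the log2 CPM scale (CPM, reads of the gene scaled to a common library size) in both comparisons and no fold change deposited as exactly 0. The other genes were 8041 of low abundance and 327 with such a 0, among them Sftpc, Scgb1a1 and Lyz2, leading transcripts of alveolar type 2 cells, club cells and macrophages. The ± after a difference is a standard error worked back from the deposited p-values, since no value per library was used, and group levels are given as 1 CPM value per group without a spread. Depth per library is unknown, and whether single lungs of 2 groups overlapped cannot be said.

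A ventilator that overstretches the lung deforms epithelium and endothelium, and cells answer mechanical and inflammatory signals in waves. Immediate early genes come first: transcription factors of the FOS, JUN, EGR and NR4A families are induced within minutes through MAP kinases, calcium and serum response factor, without new protein synthesis. Cytokines and chemokines follow, often through NF-kB and AP-1, and chemokines of the CXC and CC families draw neutrophils and monocytes into the tissue. Feedback inhibitors, such as the mRNA-destabilising protein ZFP36, are induced in the same wave. Claudin-4 itself seals the paracellular route between alveolar epithelial cells.

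The knockout label held in both groups: Cldn4 was at 0.122 CPM in KO_VILIhigh and 0.0212 CPM in KO_VILIlow, against 139.8 CPM in WT_VILI, 0.14 CPM in KO_noVILI and 9.38 CPM in WT_noVILI. Both knockout values lie near the floor of the estimate, so no fold is given between them, and Cldn4 was the only tested gene under 0.5 CPM in both. Sex-linked transcripts were alike in the knockout groups compared, with the Y-linked Ddx3y at 90.7 CPM in KO_VILIhigh and 107 CPM in KO_VILIlow and Xist, the RNA of the inactive X chromosome, at 2.56 CPM in KO_VILIhigh and 4.08 CPM in KO_VILIlow. The unventilated groups were of the opposite pattern, with Xist at 505 CPM in KO_noVILI and 891 CPM in WT_noVILI and Ddx3y under 0.5 CPM in both. Ventilation and sex therefore cannot be told apart in any level set against them below. Lung identity was present in both knockout groups, with Sftpb of type 2 cells at 3369 CPM in KO_VILIhigh and 3286 CPM in KO_VILIlow. The endothelial gene Cdh5 was at 1104 CPM in KO_VILIhigh and 1172 CPM in KO_VILIlow. Levels of WT_VILI and the knockout groups come from other tables than those of KO_noVILI and WT_noVILI. The tables were normalized separately, and WT_VILI differed between them by a median of -0.09 log2, so levels set across them carry that offset.

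At an adjusted p of 0.05, 23 of the 13222 genes differed between KO_VILIhigh and KO_VILIlow (0.174%). Of these, 21 were higher in KO_VILIhigh (0.159%) and 2 were lower (0.0151%). The 21 were immediate early genes, chemokines, B cell genes and a few single genes, and the 2 lower ones were Angptl7 and Per3. At an unadjusted p of 0.05 there were 219 higher (1.66%) and 79 lower genes (0.597%). The bulk of the transcriptome was centred on 0: the median difference was -0.0093 with an interquartile range of -0.18 to 0.16, and 6383 genes were above 0 against 6839 below. The median standard error was 0.35, and called differences began at 1.11 (Ier5) among higher genes and -1.18 (Per3) among lower ones. The error counts the variance of WT_VILI although that group cancels. With the summed variances multiplied by 0.5, the value that applies if the groups vary alike, 115 genes were higher (0.87%) and 20 lower (0.151%), and these included all 23. With Benjamini-Yekutieli in place of Benjamini-Hochberg adjustment only Fosb, Ccl2 and Fos remained.

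**Figure D1:**
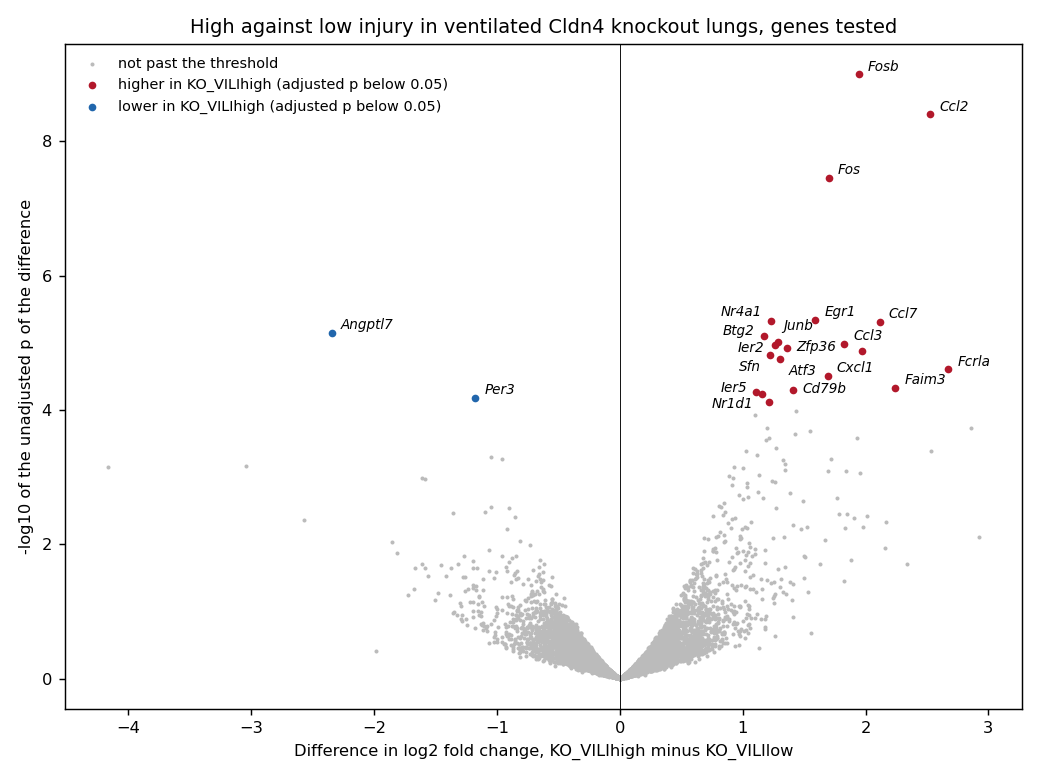
Each point is 1 of 13222 genes, with the difference in log2 fold change (KO_VILIhigh minus KO_VILIlow) on the horizontal axis and the -log10 of its unadjusted p on the vertical axis. Red and blue points are the 21 higher and 2 lower genes past an adjusted p of 0.05, and Fosb, Ccl2 and Fos stand above the rest.

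The AP-1 transcription factor, which FOS and JUN proteins form as pairs, had several genes that were higher in the more injured knockout lungs. Of 12 AP-1 genes tested, 4 rose past the threshold (Fosb, Fos, Junb and Atf3), against 0.159% of all genes, and none fell. All 12 differences were above 0, with a median of 0.63 against -0.0093 over all genes. Fosb stood at 419.9 CPM in KO_VILIhigh and 109.6 CPM in KO_VILIlow, against 91.7 CPM in WT_VILI, 10.5 CPM in KO_noVILI and 28.7 CPM in WT_noVILI. The difference was 1.95 ± 0.32 log2 (95% interval 1.32 to 2.57, adjusted p = 1.33e-05), a 3.85-fold higher level. Fos had 908 CPM in KO_VILIhigh and 283 CPM in KO_VILIlow, against 239.6 CPM in WT_VILI, 44.5 CPM in KO_noVILI and 179.8 CPM in WT_noVILI, and a difference of 1.70 ± 0.31 (adjusted p = 1.55e-04). In both genes KO_VILIlow was close to WT_VILI while KO_VILIhigh stood apart from every other group.

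Junb, the JUN family member that often restrains c-Jun, was at 900.4 CPM in KO_VILIhigh and 374 CPM in KO_VILIlow, against 241 CPM in WT_VILI, 72.9 CPM in KO_noVILI and 150.4 CPM in WT_noVILI. It rose by 1.29 ± 0.29 log2 (adjusted p = 0.013). Atf3, a stress-induced factor that pairs with JUN proteins and damps inflammatory transcription, was at 564 CPM in KO_VILIhigh and 229 CPM in KO_VILIlow, against 222 CPM in WT_VILI, 14.9 CPM in KO_noVILI and 25.8 CPM in WT_noVILI (difference 1.30 ± 0.30, adjusted p = 0.0152). Its level in KO_VILIlow was nearly that of WT_VILI, and both were far above the unventilated groups. Fosl1 and Jun had differences of 1.26 ± 0.39 and 0.85 ± 0.28 but did not pass (adjusted p = 0.276 and 0.473). The remaining family members, Maff, Jund, Mafk, Fosl2, Batf and Mafg, lay between 0.016 and 0.41. Jund was at 910.1 CPM in KO_VILIhigh and 718 CPM in KO_VILIlow, and Fosl2 at 582 CPM in KO_VILIhigh and 498 CPM in KO_VILIlow.

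The same direction held among EGR, NR4A and other immediate early genes: 6 of 31 tested rose, against 0.159% of all genes, and none fell. Of the 31 differences 30 were above 0 (median 0.66). At an unadjusted p of 0.05, 17 were higher and none lower, against 1.66% higher and 0.597% lower over all genes. Egr1, the zinc finger factor used as a marker of acute stimulation, was at 2956 CPM in KO_VILIhigh and 973 CPM in KO_VILIlow, against 671 CPM in WT_VILI, 86.4 CPM in KO_noVILI and 381 CPM in WT_noVILI. Its difference was 1.59 ± 0.35 log2 (95% interval 0.91 to 2.27, adjusted p = 0.0108), and no other gene of the list reached its level in KO_VILIhigh. Nr4a1, an orphan nuclear receptor, had 934 CPM in KO_VILIhigh and 403 CPM in KO_VILIlow, against 319 CPM in WT_VILI, 68.9 CPM in KO_noVILI and 308 CPM in WT_noVILI (difference 1.23 ± 0.27, adjusted p = 0.0108). In wild type lungs its ventilated and unventilated levels were alike, while the knockout had a low unventilated level and a high one after severe injury.

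Zfp36, whose protein tristetraprolin marks AU-rich mRNAs of cytokines for decay, was at 1344 CPM in KO_VILIhigh and 530.2 CPM in KO_VILIlow, against 395 CPM in WT_VILI, 94.7 CPM in KO_noVILI and 162 CPM in WT_noVILI (difference 1.36 ± 0.31, adjusted p = 0.0132). The growth-arrest gene Btg2 was at 1106 CPM in KO_VILIhigh and 496 CPM in KO_VILIlow, against 432 CPM in WT_VILI, 182 CPM in KO_noVILI and 482 CPM in WT_noVILI (difference 1.17 ± 0.26, adjusted p = 0.013). Ier2 and Ier5, nuclear proteins of the same early wave, rose by 1.27 ± 0.29 and 1.11 ± 0.28 log2 (adjusted p = 0.013 and 0.0358). Ier2 was at 485 CPM in KO_VILIhigh and 203 CPM in KO_VILIlow, and Ier5 at 273 CPM in KO_VILIhigh and 127 CPM in KO_VILIlow. Arc, an effector best known from neurons, lay just outside the threshold at 1.43 ± 0.37 (adjusted p = 0.0577), with 64.3 CPM in KO_VILIhigh and 23.9 CPM in KO_VILIlow, against 11.2 CPM in WT_VILI, 2.2 CPM in KO_noVILI and 1.25 CPM in WT_noVILI. Ier3 was also close, at 1.19 ± 0.33 (adjusted p = 0.117). Nr4a2 and Nr4a3, the sister receptors of Nr4a1, had 0.35 ± 0.32 and 0.66 ± 0.33, and Egr2 and Egr3 had 0.78 ± 0.36 and 0.98 ± 0.48, none of which passed. Klf4, Klf6 and Klf10 lay between 0.14 and 0.27, and the EGR corepressor Nab1 was the only member of the list below 0, at -0.27 ± 0.35.

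Phosphatases that switch MAP kinases off were less clear. None of 15 MAP kinase feedback genes passed, with a median of 0.29 and 12 above 0. Dusp1, the most abundant, was at 1129 CPM in KO_VILIhigh and 706 CPM in KO_VILIlow, against 602 CPM in WT_VILI, 232 CPM in KO_noVILI and 486 CPM in WT_noVILI (difference 0.66 ± 0.29, unadjusted p = 0.024). Dusp2 and Dusp5 had 1.1 ± 0.44 and 1.06 ± 0.42 (unadjusted p = 0.0119 and 0.0112), and Spry1 had 0.29 ± 0.37.

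**Figure D2:**
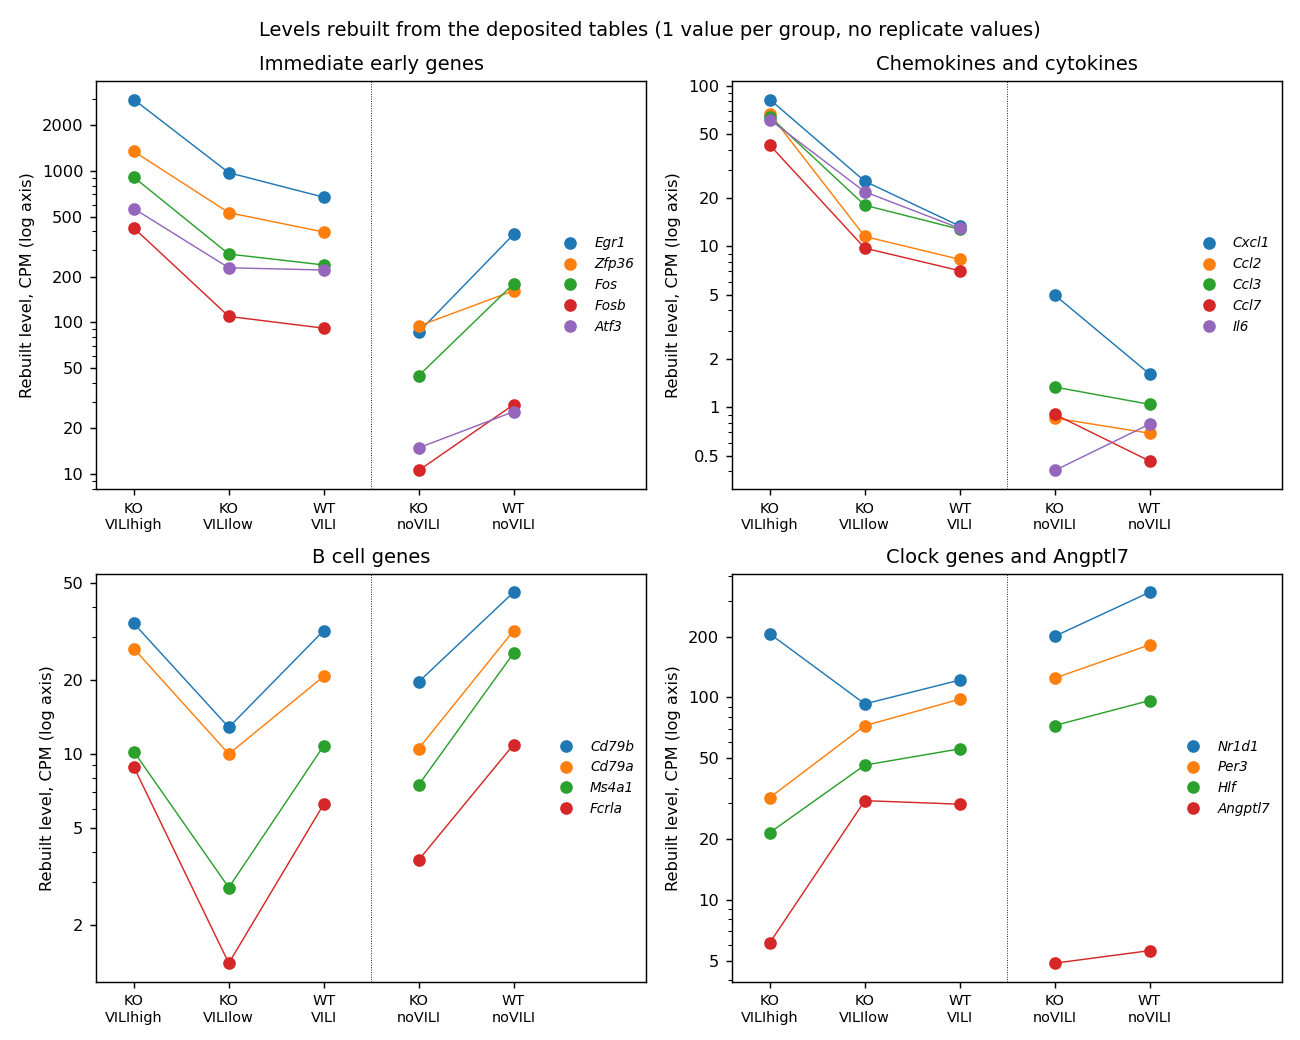
Levels in CPM on a log axis, rebuilt from the deposited tables, 1 point per group and gene, with ventilated groups left of the dotted line and unventilated groups right of it. Immediate early genes and chemokines are highest in KO_VILIhigh while KO_VILIlow lies closer to WT_VILI, B cell genes are lowest in KO_VILIlow, and Angptl7 is high in KO_VILIlow and WT_VILI (30.9 and 29.7 CPM) and low in the other groups.

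The 250 bases before the annotated start of several of these genes are shown, since they moved together and well-known control elements of immediate early and chemokine genes lie near the start. Sequences are from RefSeq on GRCm38.p6, not the mm9 build the authors mapped to, written 5′ to 3′ on the strand of the gene. Capitals mark matches on either strand to a CArG box (the serum response factor site), a cAMP response element (TGACGTCA), an AP-1 site (TGANTCA), an NF-kB site, an EGR site (GCGNGGGCG) or a TATA box (TATAAA). The AP-1 and EGR, NR4A genes shown are those with the largest differences that had an entry, with Egr1 set aside beforehand. Egr1 is not shown, although its difference (1.59) was larger than those of Zfp36 (1.36) and Atf3 (1.30).
Fosb, chr7:19310046-19310295, minus strand: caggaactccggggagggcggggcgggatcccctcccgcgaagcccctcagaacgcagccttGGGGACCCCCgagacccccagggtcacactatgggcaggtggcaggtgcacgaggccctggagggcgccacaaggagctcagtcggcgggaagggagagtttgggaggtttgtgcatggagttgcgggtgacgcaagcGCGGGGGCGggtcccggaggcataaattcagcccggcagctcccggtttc
Fos, chr12:85473640-85473889, plus strand: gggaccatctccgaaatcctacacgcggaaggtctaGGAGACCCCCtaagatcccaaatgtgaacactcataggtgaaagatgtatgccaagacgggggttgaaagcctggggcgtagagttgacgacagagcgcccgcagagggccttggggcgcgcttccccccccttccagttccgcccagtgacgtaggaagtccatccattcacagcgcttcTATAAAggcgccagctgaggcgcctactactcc
Zfp36, chr7:28379229-28379478, minus strand: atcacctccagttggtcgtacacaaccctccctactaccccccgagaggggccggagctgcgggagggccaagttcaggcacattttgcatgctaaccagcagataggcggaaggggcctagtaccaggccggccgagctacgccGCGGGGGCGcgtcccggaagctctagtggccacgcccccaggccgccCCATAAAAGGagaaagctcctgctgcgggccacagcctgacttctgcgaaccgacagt
Atf3, chr1:191183334-191183583, minus strand: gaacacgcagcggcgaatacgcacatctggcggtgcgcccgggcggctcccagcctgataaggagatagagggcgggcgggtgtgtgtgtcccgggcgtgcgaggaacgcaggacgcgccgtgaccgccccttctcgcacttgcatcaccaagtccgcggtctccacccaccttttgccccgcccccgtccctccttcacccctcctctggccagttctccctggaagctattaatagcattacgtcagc
Fosb held an NF-kB match from base -188 to -179 and an EGR match from -50 to -42, counted from the annotated start. Fos held an NF-kB match from -214 to -205 and a TATA box from -33 to -28. Zfp36 held an EGR match from -105 to -97 and a CArG box from -58 to -49. Atf3 held none of these letters in its window.

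The chemokine genes that rose and had an entry were Ccl3 and Cxcl1, shown in the same way.
Ccl3, chr11:83649379-83649628, minus strand: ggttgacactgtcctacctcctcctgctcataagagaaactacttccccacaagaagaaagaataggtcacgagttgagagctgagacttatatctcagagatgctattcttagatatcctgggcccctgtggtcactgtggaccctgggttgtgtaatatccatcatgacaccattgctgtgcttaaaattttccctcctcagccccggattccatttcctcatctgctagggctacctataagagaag
Cxcl1, chr5:90890995-90891244, plus strand: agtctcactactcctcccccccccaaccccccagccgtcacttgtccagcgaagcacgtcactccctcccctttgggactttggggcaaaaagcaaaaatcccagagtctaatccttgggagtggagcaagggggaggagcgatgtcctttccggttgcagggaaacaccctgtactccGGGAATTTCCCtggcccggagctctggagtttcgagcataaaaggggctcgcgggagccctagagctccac
Cxcl1 held a pair of overlapping NF-kB matches, from base -71 to -62 and from -70 to -61, which are the single capital run in its line. Ccl3 held no match. Among all 32851 windows of 250 bases in the same table, a CArG box was found in 1.47%, a cAMP response element in 1.55%, an AP-1 site in 6.75%, an NF-kB site in 7.25%, an EGR site in 4.7% and a TATA box in 12.4%. Of the 21 genes higher in KO_VILIhigh, 14 had an entry. An NF-kB match was found in 4 of these 14 (Cxcl1, Faim3, Fos and Fosb), an EGR match in 4 (Btg2, Fosb, Nr4a1 and Zfp36), a CArG box in 1 (Zfp36), a cAMP response element in 1 (Btg2), a TATA box in 1 (Fos) and an AP-1 site in 0. The percentages count windows while the counts among the 14 are of genes, where any matching window of a gene was enough, so they are unlike units. A match describes letters only and was not tied to binding. Bases outside these windows of 250 were not searched, so a gene without a match here, Fos for the CArG box included, may hold one further away.

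Chemokines that recruit monocytes had some of the largest differences. Ccl2, the main ligand of CCR2 on inflammatory monocytes, was at 66.6 CPM in KO_VILIhigh and 11.5 CPM in KO_VILIlow, against 8.31 CPM in WT_VILI, 0.857 CPM in KO_noVILI and 0.69 CPM in WT_noVILI. The difference of 2.53 ± 0.43 log2 (95% interval 1.69 to 3.37, adjusted p = 2.62e-05) is a 5.76-fold higher level, and KO_VILIlow differed little from WT_VILI. Ccl7, a neighbouring ligand of CCR2, was at 42.6 CPM in KO_VILIhigh and 9.76 CPM in KO_VILIlow, against 7.06 CPM in WT_VILI, 0.905 CPM in KO_noVILI and 0.463 CPM in WT_noVILI (difference 2.12 ± 0.46, adjusted p = 0.0108). Ccl3, also named MIP-1 alpha, a ligand of CCR1, was at 64.1 CPM in KO_VILIhigh and 18 CPM in KO_VILIlow, against 12.8 CPM in WT_VILI, 1.34 CPM in KO_noVILI and 1.04 CPM in WT_noVILI (difference 1.82 ± 0.41, adjusted p = 0.013). These were the 3 called members among 18 CC chemokine and receptor genes tested, of which 17 were above 0 (median 0.66) and none fell. Over all genes, 0.159% were called higher.

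Ccl4, Ccl17 and Ccl22 had differences as large as 2.02 ± 0.70, 1.85 ± 0.64 and 1.78 ± 0.61, but at lower levels and with larger errors they did not pass (adjusted p = 0.625, 0.61 and 0.61). Ccl22, a product of activated dendritic cells, was at 30.8 CPM in KO_VILIhigh and 8.97 CPM in KO_VILIlow, against 7.73 CPM in WT_VILI, 4.63 CPM in KO_noVILI and 5.01 CPM in WT_noVILI. The receptors Ccr1 and Ccr2 had 0.49 ± 0.54 and 0.66 ± 0.53 and did not pass. Ccl6, made by resident macrophages and abundant in all groups, was at 174 CPM in KO_VILIhigh and 198 CPM in KO_VILIlow (difference -0.18 ± 0.28).

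Among 16 CXC chemokine and receptor genes, none fell and 1 rose, against 0.159% of all genes (median 0.50, 14 above 0). It was Cxcl1, a neutrophil attractant acting through CXCR2, at 81.9 CPM in KO_VILIhigh and 25.4 CPM in KO_VILIlow, against 13.4 CPM in WT_VILI, 4.99 CPM in KO_noVILI and 1.61 CPM in WT_noVILI (difference 1.69 ± 0.41, adjusted p = 0.0241). Cxcl2, its close relative, was at 62.4 CPM in KO_VILIhigh and 22 CPM in KO_VILIlow, against 7.81 CPM in WT_VILI, 1.59 CPM in KO_noVILI and 0.255 CPM in WT_noVILI. Its difference of 1.49 ± 0.49 had an interval of 0.53 to 2.45 but did not pass over all genes (adjusted p = 0.454). The receptor Cxcr2 was at 74.2 CPM in KO_VILIhigh and 50.6 CPM in KO_VILIlow (difference 0.56 ± 0.58). Cxcl12, the homeostatic ligand of CXCR4, had 0.20 ± 0.27, and the platelet chemokines Pf4 and Ppbp had 0.067 ± 0.51 and -0.38 ± 0.48.

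The classical inflammatory cytokines pointed the same way without passing. Tnf was at 34.1 CPM in KO_VILIhigh and 12.6 CPM in KO_VILIlow, against 8.39 CPM in WT_VILI, 1.39 CPM in KO_noVILI and 1.17 CPM in WT_noVILI (difference 1.41 ± 0.50, 95% interval 0.42 to 2.39, adjusted p = 0.754). Il6 was at 61.4 CPM in KO_VILIhigh and 21.9 CPM in KO_VILIlow, against 13 CPM in WT_VILI, 0.405 CPM in KO_noVILI and 0.785 CPM in WT_noVILI (difference 1.48 ± 0.54, adjusted p = 0.798). Il1b was at 145 CPM in KO_VILIhigh and 70 CPM in KO_VILIlow, against 43.8 CPM in WT_VILI, 14.7 CPM in KO_noVILI and 14.6 CPM in WT_noVILI (difference 1.05 ± 0.41, unadjusted p = 0.0095, not past the adjusted threshold). In all 3 genes KO_VILIhigh had the highest level of the 5 groups and KO_VILIlow the next, but none passed the correction over 13222 genes. With the summed variances multiplied by 0.5 all 3 passed (adjusted p = 0.0111 for Tnf, 0.0135 for Il6 and 0.0277 for Il1b).

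In the IL-6 family list the median was 0.035 over 15 genes, with 9 above 0 and none past the threshold. Its ligands Lif and Osm had 1.07 ± 0.38 and 1.18 ± 0.47 (adjusted p = 0.703 for Lif, unadjusted p = 0.0124 for Osm), while the shared receptor subunit Il6st had 456 CPM in KO_VILIhigh and 463 CPM in KO_VILIlow and Stat3, which it signals through, a difference of 0.035 ± 0.28. Socs3, the feedback inhibitor of that pathway, was at 531 CPM in KO_VILIhigh and 338 CPM in KO_VILIlow, against 118 CPM in WT_VILI, 46.9 CPM in KO_noVILI and 40.5 CPM in WT_noVILI (difference 0.66 ± 0.36, unadjusted p = 0.0652). The IL-1 list had a median of 0.26 with 12 of 15 genes above 0, and the TNF list 0.33 with 14 of 17 above 0, with none past the threshold in either. In the TNF list, the feedback deubiquitinase Tnfaip3 had 0.76 ± 0.30 and the receptor Tnfrsf1a 0.13 ± 0.28. In the IL-1 list, the antagonist Il1rn had 0.89 ± 0.38 and the alarmin Il33 -0.43 ± 0.42.

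None of 14 NF-kB subunit and inhibitor genes passed, though 12 were above 0 (median 0.50). Nfkbiz, an inducible nuclear cofactor needed for Il6 transcription, was nearest, at 166 CPM in KO_VILIhigh and 71.9 CPM in KO_VILIlow, against 59.6 CPM in WT_VILI, 27.9 CPM in KO_noVILI and 39.1 CPM in WT_noVILI (difference 1.22 ± 0.33, adjusted p = 0.113). Nfkbia, the inhibitor IkB alpha, was at 309 CPM in KO_VILIhigh and 249 CPM in KO_VILIlow (difference 0.32 ± 0.29), and Rela at 253 CPM in KO_VILIhigh and 202 CPM in KO_VILIlow (difference 0.33 ± 0.28). None of 20 pattern recognition genes passed (median 0.28), with Tlr2 at 0.76 ± 0.31 and Cd14 at 0.59 ± 0.42. Of 17 leukocyte adhesion genes none passed (median 0.39). Among them the selectins Selp and Sele had 1.35 ± 0.71 and 0.96 ± 0.74, and Vcam1 had 0.67 ± 0.31 (unadjusted p = 0.0296).

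Markers of the cells that make or follow these signals are given beside them. In bulk lung, a change in the number of cells of a type, B cells included, and a change in RNA per cell cannot be told apart. Of 21 neutrophil genes tested, 20 were above 0 (median 0.51) and none passed. Their summed level was 1708 CPM in KO_VILIhigh and 1243 CPM in KO_VILIlow, against 974 CPM in WT_VILI. The defining genes S100a8 and S100a9 were at 185 CPM in KO_VILIhigh and 141 CPM in KO_VILIlow, and at 476 CPM in KO_VILIhigh and 378 CPM in KO_VILIlow (differences 0.41 ± 0.65 and 0.34 ± 0.67), well within their errors. Of 19 monocyte and interstitial macrophage genes, the only one past the threshold was Nr4a1, which is also an immediate early gene (median 0.19). Of 21 alveolar macrophage genes none passed (median -0.15). The part of these cells in the chemokine differences was not tested.

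**Figure D3:**
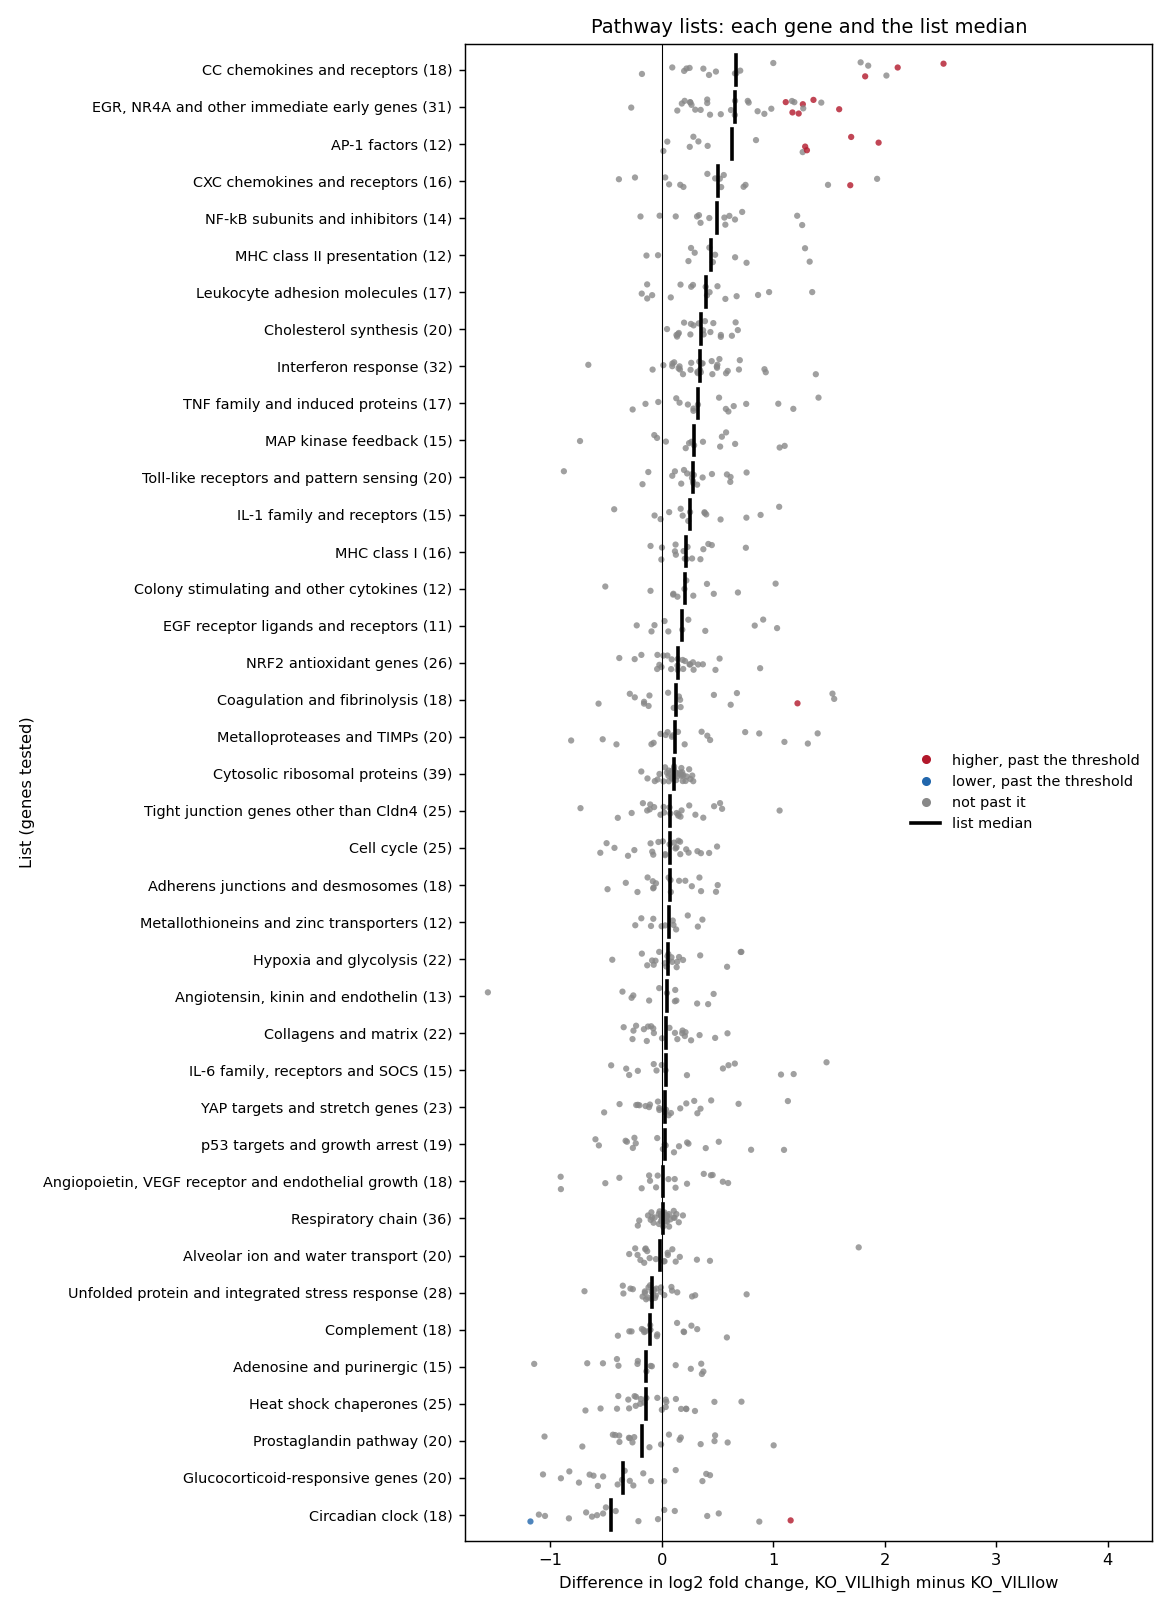
Each point is the difference (KO_VILIhigh minus KO_VILIlow, log2) of 1 tested gene, by pathway list, with the number of genes tested in brackets and the list median as a black bar. CC chemokines, both immediate early lists and CXC chemokines have the highest medians, and the circadian clock the lowest.

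B cell genes were lower in the less injured knockout lungs than in the more injured ones. Of 16 tested, 4 rose past the threshold, against 0.159% of all genes. All 16 were above 0, with a median difference of 1.71 against -0.0093 over all genes. At an unadjusted p under 0.05, 15 were higher, against 1.66% of all genes. Set against WT_VILI, they were low in KO_VILIlow rather than high in KO_VILIhigh. Their summed level was 233 CPM in KO_VILIhigh and 89.5 CPM in KO_VILIlow, against 225 CPM in WT_VILI, 136 CPM in KO_noVILI and 348 CPM in WT_noVILI. In the authors' deposited table the members' median log2 fold change against WT_VILI was -0.019 in KO_VILIhigh and -1.55 in KO_VILIlow. Without ventilation, the members' median of KO_noVILI against WT_noVILI was -1.545. A level below wild type was therefore not particular to KO_VILIlow among the knockout groups.

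Cd79b, a signalling chain of the B cell receptor, was at 34.1 CPM in KO_VILIhigh and 12.9 CPM in KO_VILIlow, against 31.9 CPM in WT_VILI, 19.7 CPM in KO_noVILI and 45.8 CPM in WT_noVILI (difference 1.41 ± 0.35, adjusted p = 0.0347). Fcrla, an intracellular Fc receptor-like protein of B cells, was at 8.86 CPM in KO_VILIhigh and 1.4 CPM in KO_VILIlow, against 6.25 CPM in WT_VILI, 3.7 CPM in KO_noVILI and 10.9 CPM in WT_noVILI (difference 2.67 ± 0.63, adjusted p = 0.0206). Faim3, now named Fcmr, the receptor for IgM, was at 9.75 CPM in KO_VILIhigh and 2.07 CPM in KO_VILIlow, against 10.7 CPM in WT_VILI, 4.38 CPM in KO_noVILI and 18.9 CPM in WT_noVILI (difference 2.24 ± 0.55, adjusted p = 0.0346). In all 3 the order was the same: KO_VILIhigh lay near WT_VILI, KO_VILIlow was lowest of the 5 groups, and WT_noVILI was highest. The calls of Cd79b and Faim3 depend on how the standard error is set where the deposited p was near 1: with each table's own value for every gene, their adjusted p was 0.638 and 0.116.

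Other members followed without passing: Cd79a (1.43 ± 0.39, adjusted p = 0.104), Ms4a1, the gene of CD20 (1.84 ± 0.55, adjusted p = 0.224), Blk (1.72 ± 0.50, adjusted p = 0.183) and the follicle-homing receptor Cxcr5 (1.93 ± 0.53, adjusted p = 0.113). Ebf1, a lineage factor also expressed in stroma, had the smallest difference, 0.44 ± 0.45. Genes of MHC class II presentation, which B cells share with dendritic cells and macrophages, had a median of 0.44 over 12 genes and none past the threshold. Within them the B cell-enriched H2-Ob had 1.33 ± 0.38 and the broadly expressed Cd74 and H2-Aa had 0.24 ± 0.30 and 0.26 ± 0.27. Unlike the B cell list, H2-Ob was below wild type in KO_VILIhigh too. It was at 14.5 CPM in KO_VILIhigh and 5.78 CPM in KO_VILIlow, against 31 CPM in WT_VILI, 7.7 CPM in KO_noVILI and 37.6 CPM in WT_noVILI. Plasma cell genes had a median of 0.30 over 8 genes.

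T and NK cell genes were all above 0 as well: 18 of 18, median 0.66, summed level 308 CPM in KO_VILIhigh and 201 CPM in KO_VILIlow, against 239 CPM in WT_VILI. None passed. The defining gene Cd3e was at 22.5 CPM in KO_VILIhigh and 14.3 CPM in KO_VILIlow (difference 0.66 ± 0.43), the kinase Lck at 24.2 CPM in KO_VILIhigh and 12.1 CPM in KO_VILIlow (1.00 ± 0.36, adjusted p = 0.798) and Cd8a at 13.1 CPM in KO_VILIhigh and 6.18 CPM in KO_VILIlow (1.07 ± 0.44, unadjusted p = 0.015).

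**Figure D4:**
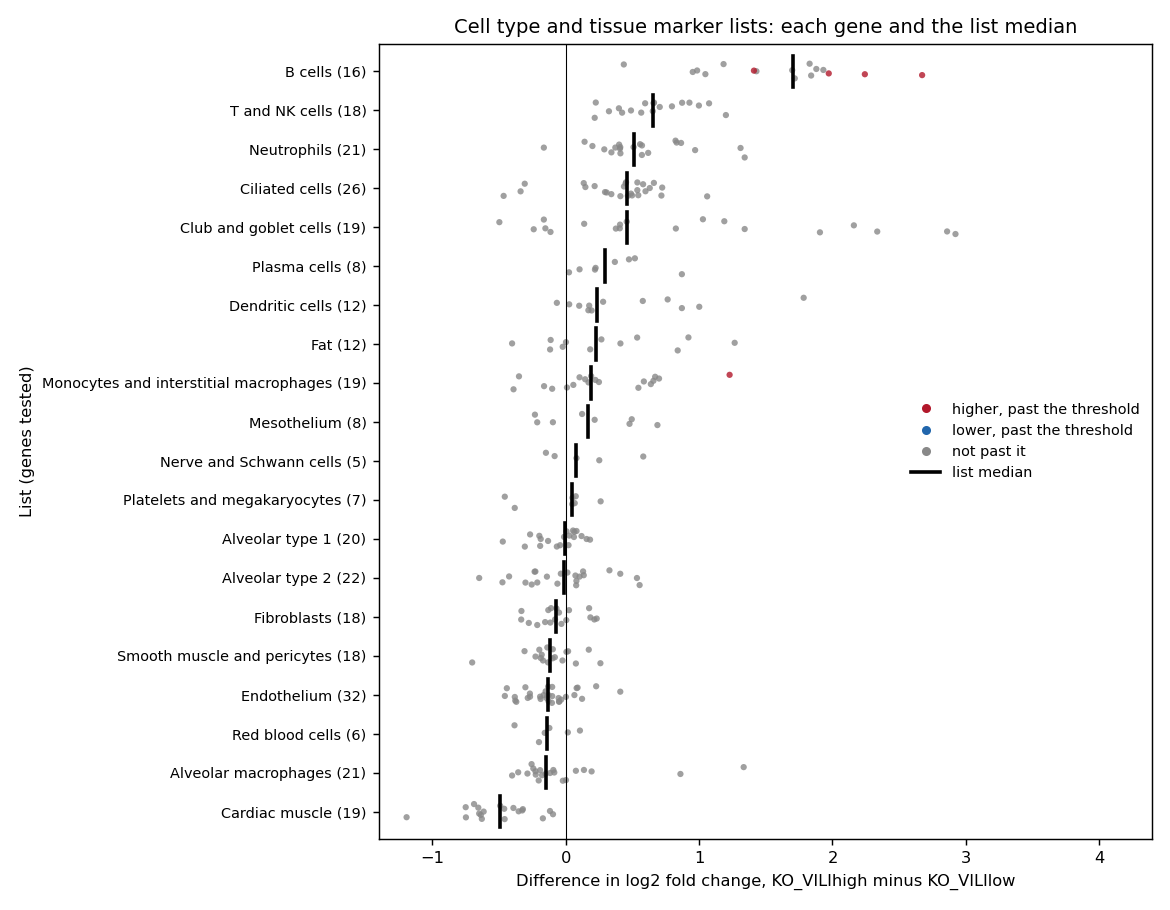
Each point is the difference (KO_VILIhigh minus KO_VILIlow, log2) of 1 tested marker gene, by cell type or tissue list, with the number of genes tested in brackets and the list median as a black bar. B cell genes have a median of 1.71, while alveolar type 1 and type 2 genes are centred on 0 and cardiac muscle genes lie wholly below it.

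Club and goblet cell genes of the airway had a median difference of 0.46, with 14 of 19 above 0 and 5 below. None passed over all genes. At an unadjusted p under 0.05, 8 were higher and none lower, against 1.66% higher over all genes. With the summed variances multiplied by 0.5, 6 were higher, against 0.87% of all genes. The antimicrobial lectin Reg3g was at 20.7 CPM in KO_VILIhigh and 2.89 CPM in KO_VILIlow, against 1.46 CPM in WT_VILI, 0.8 CPM in KO_noVILI and 0.627 CPM in WT_noVILI (difference 2.92 ± 1.1, unadjusted p = 0.00791). Bpifb1, a secreted lipid-binding protein of the airway surface, was at 65.6 CPM in KO_VILIhigh and 9.21 CPM in KO_VILIlow, against 14.7 CPM in WT_VILI, 7.45 CPM in KO_noVILI and 10.9 CPM in WT_noVILI (difference 2.86 ± 0.76, adjusted p = 0.0913). The gel-forming mucin Muc5b was at 137 CPM in KO_VILIhigh and 37 CPM in KO_VILIlow, against 39.5 CPM in WT_VILI, 17.1 CPM in KO_noVILI and 30.9 CPM in WT_noVILI (difference 1.91 ± 0.66, adjusted p = 0.649). Scgb3a1 and Scgb3a2, secretoglobins of the airway, had 2.16 ± 0.85 and 0.83 ± 0.28.

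Scgb1a1, the main club cell secretoglobin, was among the genes left out for a fold change of 0. Of the enzymes of these cells, Cyp2f2 was at 2630.4 CPM in KO_VILIhigh and 2021 CPM in KO_VILIlow (difference 0.38 ± 0.26), Aldh1a1 at 1268 CPM in KO_VILIhigh and 1569 CPM in KO_VILIlow (difference -0.24 ± 0.28), and Cyp4b1 and Cyp2b10 had -0.11 ± 0.25 and -0.50 ± 0.33. Ciliated cell genes were above 0 in 23 of 26 cases with a median of 0.46, none past the threshold. Their summed level was 1182 CPM in KO_VILIhigh and 924 CPM in KO_VILIlow, against 986 CPM in WT_VILI. The master regulator Foxj1 was at 28.3 CPM in KO_VILIhigh and 20.7 CPM in KO_VILIlow (difference 0.45 ± 0.36), and Ccdc39, an axoneme gene, at 14.6 CPM in KO_VILIhigh and 18 CPM in KO_VILIlow (difference -0.31 ± 0.45). Whether the amount of airway in the sampled lung had a part in the values of these genes was not tested.

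Of 18 coagulation and fibrinolysis genes 1 rose, against 0.159% of all genes, and none fell. Their median was 0.13, and the members named here did not pass. Plau, the urokinase that activates plasminogen, was at 47.4 CPM in KO_VILIhigh and 16.1 CPM in KO_VILIlow, against 8.12 CPM in WT_VILI, 33.4 CPM in KO_noVILI and 15.6 CPM in WT_noVILI (difference 1.55 ± 0.42, adjusted p = 0.0978), and its receptor Plaur had 0.67 ± 0.29 (unadjusted p = 0.0191). Tissue factor, F3, was at 524 CPM in KO_VILIhigh and 350.3 CPM in KO_VILIlow, against 377 CPM in WT_VILI, 36.6 CPM in KO_noVILI and 58.3 CPM in WT_noVILI (difference 0.62 ± 0.33, unadjusted p = 0.0604). Sfn, the gene of 14-3-3 sigma, a p53-responsive protein of epithelia, rose past the threshold. It belongs to no list and is named after its values were seen. It was at 136 CPM in KO_VILIhigh and 58.6 CPM in KO_VILIlow, against 41.2 CPM in WT_VILI, 5.74 CPM in KO_noVILI and 2.41 CPM in WT_noVILI (difference 1.22 ± 0.28, adjusted p = 0.0142).

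Of the 2 genes that fell, Angptl7, a secreted angiopoietin-like protein, had the larger difference. It was at 6.14 CPM in KO_VILIhigh and 30.9 CPM in KO_VILIlow, against 29.7 CPM in WT_VILI, 4.86 CPM in KO_noVILI and 5.61 CPM in WT_noVILI, which is a 5.08-fold lower level in KO_VILIhigh than in KO_VILIlow (difference -2.34 ± 0.52, 95% interval -3.37 to -1.32, adjusted p = 0.013). WT_VILI and KO_VILIlow stood well above the unventilated groups, and KO_VILIhigh stood near them.

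Clock genes differed in both directions. Of 18 tested, 1 rose and 1 fell, against 0.159% and 0.0151% of all genes. Of the 18, 12 were below 0, and the median was -0.46, the lowest of the pathway lists. Nr1d1, the repressor REV-ERB alpha, was at 206 CPM in KO_VILIhigh and 92.9 CPM in KO_VILIlow, against 122 CPM in WT_VILI, 201 CPM in KO_noVILI and 331 CPM in WT_noVILI (difference 1.16 ± 0.29, adjusted p = 0.0364). Per3, a period gene, was at 32 CPM in KO_VILIhigh and 72.5 CPM in KO_VILIlow, against 98 CPM in WT_VILI, 125 CPM in KO_noVILI and 182 CPM in WT_noVILI (difference -1.18 ± 0.29, adjusted p = 0.0401). The output factors Hlf and Tef had -1.1 ± 0.38 and -0.62 ± 0.28 and the repressor Cry1 -1.05 ± 0.35, with adjusted p = 0.594 for Hlf and 0.519 for Cry1. Per1, which many stimuli induce, was at 382 CPM in KO_VILIhigh and 382 CPM in KO_VILIlow (difference 0.024 ± 0.25). Arntl, whose product drives the clock, had 0.88 ± 0.57. The time of day at which lungs were taken is not among the labels used here, and injury grade and time of day cannot be told apart.

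Glucocorticoid-responsive genes had mostly negative differences without a call: 15 of 20 were below 0 (median -0.34). At an unadjusted p under 0.05 none was higher and 3 were lower, against 0.597% of all genes. They were Hif3a (-1.06 ± 0.42), Klf15 (-0.83 ± 0.39) and Tsc22d3, the gene of the anti-inflammatory protein GILZ, at 306 CPM in KO_VILIhigh and 484 CPM in KO_VILIlow (-0.65 ± 0.27, unadjusted p = 0.0174). Sgk1 and Per1, steroid targets that respond to other stimuli too, had 0.13 ± 0.27 and 0.024 ± 0.25. In the prostaglandin pathway 8 of 20 genes were above 0 and 12 below (median -0.18), and none passed. Ptgs2, the inducible cyclooxygenase, was at 570.3 CPM in KO_VILIhigh and 288 CPM in KO_VILIlow, against 324 CPM in WT_VILI, 23.1 CPM in KO_noVILI and 32.6 CPM in WT_noVILI (difference 1.00 ± 0.30, adjusted p = 0.218). Hpgd, which degrades prostaglandins, was at 189.9 CPM in KO_VILIhigh and 395 CPM in KO_VILIlow, against 504 CPM in WT_VILI, 551 CPM in KO_noVILI and 546 CPM in WT_noVILI (difference -1.05 ± 0.30, adjusted p = 0.181).

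Cholesterol synthesis genes were above 0 in 20 of 20 cases, each by little (median 0.35, highest 0.68), and none passed. Insig1, whose protein holds back the activation of the SREBP factors that drive these genes, was at 145 CPM in KO_VILIhigh and 90.8 CPM in KO_VILIlow, against 134 CPM in WT_VILI, 79.7 CPM in KO_noVILI and 81.6 CPM in WT_noVILI (difference 0.68 ± 0.27, unadjusted p = 0.0124). KO_VILIhigh was close to WT_VILI for these genes and KO_VILIlow below both: the members' median log2 fold change against WT_VILI, in the authors' deposited table, was 0.053 in KO_VILIhigh and -0.27 in KO_VILIlow. Interferon response genes were above 0 in 30 of 32 cases (median 0.35) with none past the threshold, led by Oas3 at 1.38 ± 0.66. Heat shock chaperones (25 genes, median -0.14), unfolded protein response genes (28, -0.083), NRF2 targets (26, 0.14), hypoxia and glycolysis genes (22, 0.061) and cell cycle genes (25, 0.071) had no call in either direction. Ribosomal protein genes (39, median 0.11) and respiratory chain genes (36, median 0.01) had the narrowest ranges of all lists, within -0.21 and 0.28 log2.

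Of 25 tight junction genes other than Cldn4 none passed and the median was 0.077. Cldn3, the epithelial claudin nearest to Cldn4 in sequence, was at 224 CPM in KO_VILIhigh and 199 CPM in KO_VILIlow, against 198 CPM in WT_VILI, 144 CPM in KO_noVILI and 135 CPM in WT_noVILI (difference 0.18 ± 0.32, 95% interval -0.45 to 0.80). Cldn18, the main claudin of alveolar type 1 cells, was at 999.8 CPM in KO_VILIhigh and 1054 CPM in KO_VILIlow (difference -0.067 ± 0.27, interval -0.60 to 0.47), and the endothelial Cldn5 at 474 CPM in KO_VILIhigh and 529 CPM in KO_VILIlow (difference -0.13 ± 0.26, interval -0.64 to 0.39). All 3 intervals lie within 1 log2 unit of 0, and a miss of the threshold does not show that levels were equal. Cldn8 had the largest difference of the list, 1.06 ± 0.45, at 10.2 CPM in KO_VILIhigh and 4.85 CPM in KO_VILIlow. Adherens junction genes (18, median 0.071) and alveolar ion and water transport genes (20, median -0.015) also had no call, with Scnn1a, the sodium channel subunit, at 769.6 CPM in KO_VILIhigh and 843 CPM in KO_VILIlow, and Aqp4 at 1.77 ± 0.57.

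Genes of resident lung cells had no call. Alveolar type 2 genes (22, median -0.013) and type 1 genes (20, median -0.0039) were spread evenly about 0, and endothelial genes were below 0 in 25 of 32 cases (median -0.13) with none past the threshold. Tissue that can be taken with the lung is given here as values. Cardiac muscle genes, from heart or pulmonary vein, were below 0 in 19 of 19 cases (median -0.49) with no gene at an unadjusted p under 0.05. Their summed level was 1266 CPM in KO_VILIhigh and 1807 CPM in KO_VILIlow, against 784 CPM in WT_VILI. Red blood cell genes summed to 3176 CPM in KO_VILIhigh and 3500.1 CPM in KO_VILIlow, against 1022 CPM in WT_VILI. The part of such tissue and of retained blood in the gene differences above was not tested.

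The called genes were also placed against ventilated wild type lungs, a comparison in which both knockout groups share WT_VILI. By the sign of the fold changes alone, WT_VILI lay below both knockout groups for 16 of the 21 genes higher in KO_VILIhigh. Of these 16, only Cxcl1 differed between KO_VILIlow and WT_VILI at 0.05 after the authors' own adjustment (adjusted p = 0.034). The order of KO_VILIlow and WT_VILI is therefore not established for the others. For the 21 the median log2 fold change against WT_VILI in the authors' deposited table was 1.67 in KO_VILIhigh and 0.36 in KO_VILIlow. WT_VILI lay between the knockout groups for Fcrla, Cd79b and Nr1d1, and above both for 2 genes, Faim3 among them. Angptl7 in KO_VILIlow differed from WT_VILI by 0.065 log2 in the authors' deposited table. Genes called between WT_VILI and WT_noVILI (at 0.05 after the authors' own adjustment, in the authors' deposited table) had medians near 0. The class higher in WT_VILI nonetheless held most of the 21 higher calls, which were 0.159% of all 13222 genes. WT_VILI and WT_noVILI also differed in sex pattern (Xist at 5.83 and 891 CPM), so these classes cannot be assigned to ventilation rather than sex. The 1006 genes higher in WT_VILI than in WT_noVILI had a median difference of 0.051 between KO_VILIhigh and KO_VILIlow and held 12 of the 21 higher calls, the 835 lower genes had a median of -0.0093 and held 2, and the 11381 others had -0.013 and held 7.

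**Figure D5:**
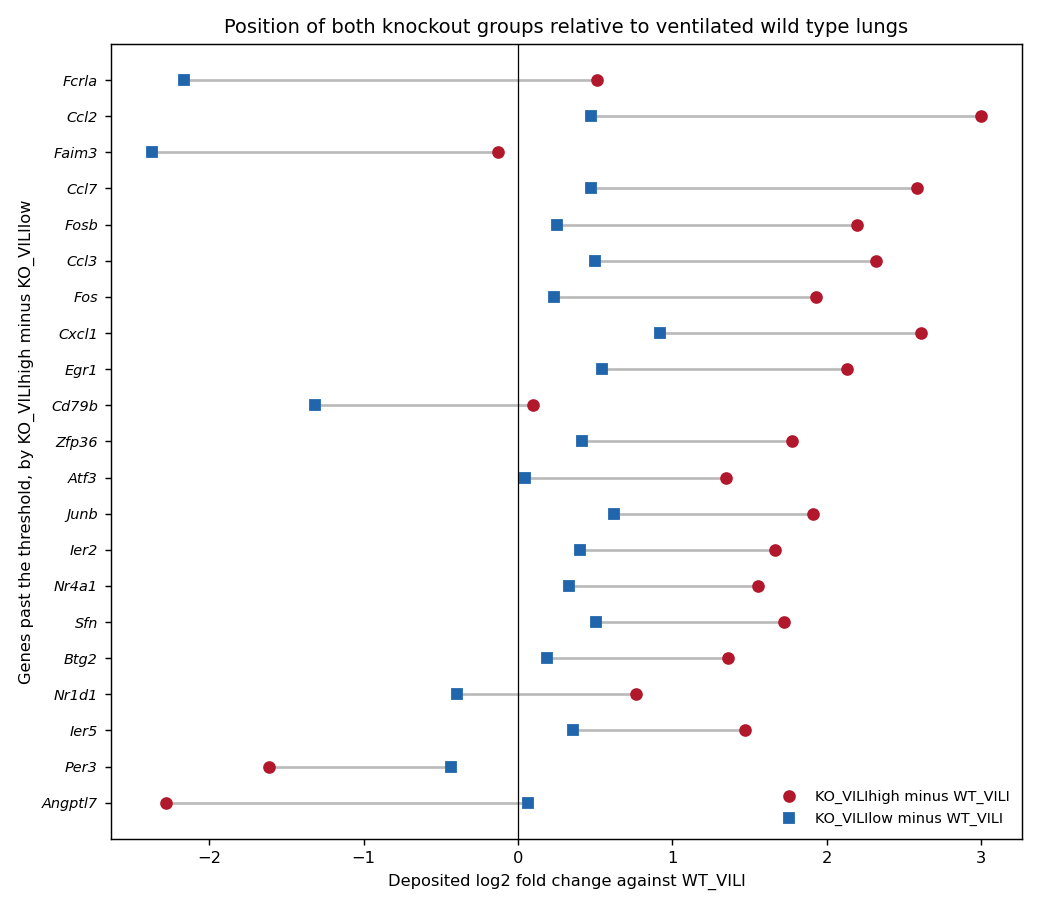
Deposited log2 fold changes against WT_VILI (the line at 0) for 21 of the 23 genes past the threshold, with KO_VILIhigh as red circles and KO_VILIlow as blue squares. Immediate early genes and chemokines have KO_VILIlow between 0.045 (Atf3) and 0.92 (Cxcl1) and KO_VILIhigh further right, while the B cell genes shown have KO_VILIhigh near 0 and KO_VILIlow between -2.37 and -1.31.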

How the data were processed

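RNA from whole mouse lung was sequenced (TruSeq libraries of TRIzol total RNA, per the labels' protocols) and mapped to mm9, with Bowtie 1.1.2, edgeR and R 3.0.1 named in the submitters' processing notes. The files hold the authors' deposited comparisons: log2 fold changes, log2 mean abundance and p-values for 21590 genes in each of 4 tables, and 0 columns of values per library. Per the labels the ventilated tables may have been set against WT_noVILI, but the levels rebuilt from them fit WT_VILI: after centring, the median absolute gap to WT_VILI was 0.0453 log2 for KO_VILIhigh's table and 0.0632 for KO_VILIlow's, against 0.229 and 0.232 to WT_noVILI. WT_VILI was therefore read as their shared baseline. The difference itself does not depend on this.

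From the deposited values, standard errors were worked back by taking each two-sided p-value to its normal quantile and dividing the size of the fold change by it. Where that p was above 0.5, the other table's error was used, or else a running median of 401 genes over abundance. The other table's error stood in for 5064 genes and the running median for 3891. Variances of both tables were added, normal p-values were adjusted by Benjamini-Hochberg over 13222 genes, and calls were made at 0.05. This derived test replaces a count test, which needs values per library. Group levels in CPM were solved from abundance and fold change of each table. The procedure was also run on simulated counts with an assumed depth and spread between libraries. Both are unknown here, so that run does not give the error rates of these calls. Symbols were matched by gene ID to RefSeq GRCm38.p6 (21534 of 21590 matched), whose promoters were also used and whose build differs from mm9. Computations ran in Python 3.11.15 with pandas 2.3.3, numpy 2.4.6 and scipy 1.17.1, and plots in matplotlib 3.10.9.

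The compared groups and the 64 gene lists (1222 distinct genes, 18 of them absent from the tables) were chosen with earlier results of these data known. Genes named by rule were 10 fixed ones, the 15 largest called rises and falls, up to 5 called members of each list, and in lists without a call the 2 most abundant members. Other genes, Sfn and Ier5 included, were named after their values were seen. Alternatives covered the error estimate, abundance minimum, centring, sex chromosomes, adjustment and a minimum difference. Some items are withheld and not reported here, though counts and list medians include them.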

Additional observations from a re-analysis of the deposited data

How the results depend on the processing

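The 23 calls (21 higher and 2 lower in KO_VILIhigh) became 55 (47 higher, 8 lower) with a standard error taken from the abundance trend alone, 135 (115 higher, 20 lower) with the summed variances multiplied by 0.5, and 3 (3 higher, 0 lower: Fosb, Ccl2 and Fos) with Benjamini-Yekutieli adjustment. The cause of the rise under the trend was not tested. Multiplying by 0.5 shortens every error and Benjamini-Yekutieli is a stricter rule, by construction. The count was 21 with each table's own error for every gene, which ended the calls of Cd79b and Faim3, 23 at a mean abundance of at least 0 and 21 at 3 (log2 CPM), and 23 with centred differences, with rebuilt levels, without genes of the X and Y chromosomes and with differences of at least 1 log2 unit. No result reversed under any of these. The higher share of calls was 91.3% as reported and 85.2% with variances multiplied by 0.5. No paired analysis was possible because the deposited tables hold no value per library, and leaving out replicates was not run for the same reason. Depth is unknown, so low genes such as Fcrla and Faim3 carry an unstated counting error.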

Other observations

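Among the genes that passed only with the summed variances multiplied by 0.5, the following were higher in KO_VILIhigh. Areg and Hbegf, ligands of the EGF receptor, were at 162 CPM in KO_VILIhigh and 86.8 CPM in KO_VILIlow, and at 328 CPM in KO_VILIhigh and 160.4 CPM in KO_VILIlow (differences 0.91 ± 0.28 and 1.03 ± 0.37). The list of EGF receptor ligands and receptors as a whole had a median of 0.19 with 8 of 11 above 0. Hmox1, the heme-degrading enzyme induced by oxidative stress, was at 158 CPM in KO_VILIhigh and 86.3 CPM in KO_VILIlow, against 63.1 CPM in WT_VILI, 35.2 CPM in KO_noVILI and 27.7 CPM in WT_noVILI (difference 0.88 ± 0.31). Krt15, a keratin of basal airway cells, was at 8.74 CPM in KO_VILIhigh and 2.28 CPM in KO_VILIlow, and Kmo, the kynurenine monooxygenase of tryptophan breakdown, at 4.7 CPM in KO_VILIhigh and 1.2 CPM in KO_VILIlow (difference 1.98 ± 0.71). Tnfrsf13c, the BAFF receptor, and Siglecg, an inhibitory lectin of B cells, had 2.17 ± 0.77 and 1.52 ± 0.55, as the B cell list did.

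Genes lower in KO_VILIhigh under the same setting included Angpt1, the TIE2 ligand that steadies endothelium, at 48.9 CPM in KO_VILIhigh and 91.5 CPM in KO_VILIlow, against 89.7 CPM in WT_VILI, 87.1 CPM in KO_noVILI and 95.2 CPM in WT_noVILI (difference -0.91 ± 0.30). Hhip, an inhibitor of hedgehog signalling expressed by lung mesenchyme, was at 44.1 CPM in KO_VILIhigh and 73.1 CPM in KO_VILIlow (difference -0.73 ± 0.28). Fmo2, a flavin monooxygenase abundant in lung, was at 664 CPM in KO_VILIhigh and 1323 CPM in KO_VILIlow, against 1258 CPM in WT_VILI, 1507 CPM in KO_noVILI and 1344 CPM in WT_noVILI (difference -0.96 ± 0.28). Hsd11b2, which inactivates corticosteroids, was at 1.6 CPM in KO_VILIhigh and 5.13 CPM in KO_VILIlow (difference -1.86 ± 0.71). The largest falls under this setting were in genes of low level. Pianp was at 1.07 CPM in KO_VILIhigh and 18.2 CPM in KO_VILIlow (difference -4.16 ± 1.23). Zfp429 and Cntn4 had -3.04 ± 0.90 and -2.57 ± 0.90, at 0.246 and 0.696 CPM in KO_VILIhigh and 1.95 and 3.86 CPM in KO_VILIlow. Hpgd, Hlf, Cry1 and Hif3a, described above, belong to the same set. None of the genes in this and the preceding paragraph passed with the full variances. All but Hbegf and Hpgd, which were named by rule, were named after their values were seen.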
